A study of Mus musculus with 2931 samples.

Results

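The genes described here are 4 vascular connexins, Gja5 (protein Cx40), Gja4 (Cx37), Gja1 (Cx43) and Gjc1 (Cx45), taken by their symbols from a table of 18072 genes counted in single endothelial cells of the mouse distal lung. All 4 symbols were in the table, and all 4 passed the filter on low counts in every class of cells tested. The data hold 2931 cells from 10 named mice, read with a plate-based Tn5 transposase protocol that carries no molecular identifiers, and sorted on FACS through a CD31 gate (2694 cells), a gate labelled mesench (224 cells) or a CD45 gate (13 cells). Each group had 1 female and 1 male mouse: normal air at E18.5, P1, P7 or P21, or hyperoxia at P7, where E is the embryonic and P the postnatal day. The labels used here give no strain, genotype, oxygen level or length of exposure, and the controls of the hyperoxia mice are the P7 mice in normal air. The submitters gave every cell 1 of 10 subtype labels, and since such labels are assigned from the same reads, levels are compared between labels as a description with no test.

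Connexins are membrane proteins that assemble in rings to form channels, and rings of neighbouring cells dock into gap junctions that pass ions and small molecules. In vessels, Cx40 and Cx37 are the connexins best known from arterial endothelium, where flow and Notch signalling are known to raise them, and Cx37 is linked to cell cycle arrest through p27. Cx43 is known from lymphatic endothelium and from endothelium at branch points and valves as well as from smooth muscle, and Cx45 from smooth muscle and from the early embryonic vasculature.

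By the GENCODE M21 annotation of GRCm38, Gja5 lies on the plus strand at chr3:96904693-97077416, with 4 exons in the transcript used for its length (3668 bases). Gja4 lies on the minus strand at chr4:127311421-127314039 with 2 exons and 1685 bases, Gja1 on the plus strand at chr10:56377330-56402513 with 2 exons and 3182 bases, and Gjc1 on the minus strand at chr11:102799579-102819700 with 3 exons and 2314 bases. All 4 are protein-coding. RefSeq (GRCm38.p6) held a promoter entry for 3 of the 4, and the 250 bases before each start are shown because Gja5 and Gja4 were highest in the same arterial labels while Gja1 was highest in another label. They are chr3:97032152-97032401 on the plus strand for Gja5, chr4:127314040-127314289 on the minus strand for Gja4 and chr10:56377050-56377299 on the plus strand for Gja1. Capitals mark matches to the motifs searched, written 5′ to 3′.
Gja5: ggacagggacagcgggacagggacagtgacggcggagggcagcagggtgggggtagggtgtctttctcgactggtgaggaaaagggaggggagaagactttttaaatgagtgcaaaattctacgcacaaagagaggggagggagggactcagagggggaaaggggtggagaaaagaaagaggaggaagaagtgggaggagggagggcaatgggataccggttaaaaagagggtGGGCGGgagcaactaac
Gja4: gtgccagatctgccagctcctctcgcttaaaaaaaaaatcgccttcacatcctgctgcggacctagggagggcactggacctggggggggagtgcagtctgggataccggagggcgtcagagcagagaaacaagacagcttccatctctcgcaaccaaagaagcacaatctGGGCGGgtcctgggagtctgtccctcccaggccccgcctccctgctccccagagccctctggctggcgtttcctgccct
Gja1: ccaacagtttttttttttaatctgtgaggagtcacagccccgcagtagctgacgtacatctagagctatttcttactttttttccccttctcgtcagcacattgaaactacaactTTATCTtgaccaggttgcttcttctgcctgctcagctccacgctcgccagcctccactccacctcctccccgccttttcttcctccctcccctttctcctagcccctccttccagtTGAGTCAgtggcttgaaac
The letters were searched on both strands for 7 motifs, and no matches overlapped. These were TGGGAA for RBPJ, GGGCGG for a GC box, CACGTG for an E-box, ACAATG for SOX factors, TATAAA for a TATA box, AGATAA for GATA factors and TGAGTCA for AP-1. Gja5 had a GC box at position -17 and Gja4 at -79 from the start, and Gja1 held the reverse complement of the GATA letters at -135 and AP-1 at -19. The remaining motifs had no match in these windows. Among 32851 RefSeq promoters of the same length, 32.74% held the GC box, 9.988% the GATA letters, 4.463% the AP-1 letters, 21.59% the RBPJ letters, 6.021% the E-box, 10.69% the SOX letters and 12.37% the TATA letters. The Gja5 and Gja4 windows were 56.4% and 61.2% G or C, and the Gja1 window 50%.

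Depth differed between cells and mice. Cells had 42095 to 2967985 reads (median 621406), and the median per mouse ran from 188609.5 in the P7 male to 928377 in the P7 female, with 212 to 359 cells a mouse. Levels are given as counts per 1000000 reads (CPM) over the summed cells of 1 mouse and label, for mice with at least 4 such cells. Shares of cells with a read were taken after thinning each cell to 50000 reads, which left out 11 shallower cells, with exact 95% binomial intervals that cover counting error only. Reads carried no molecular identifiers, so they are not independent molecules. Arterial markers were high under the arterial labels: the 9 listed summed to 3781 to 12070 CPM in Arterial EC I and 11600 to 28230 CPM in Arterial EC II, against 269.7 to 637.9 CPM in Car4+ capillaries. They reached 7380 CPM in Venous EC and 3787 to 4088 CPM in Proliferative venous EC, within the range of Arterial EC I. Dkk2, a secreted Wnt antagonist, and Mgp, matrix Gla protein, were at a median of 0 and 0.747 CPM in Arterial EC I and of 447 and 6411 CPM in Arterial EC II, while Hey1, a Notch target, was at 685.8 and 287 CPM.

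Gja5 was the most arterial of the 4. Its mean over mice was 620.4 CPM ± 187 (SD, n = 7) in Arterial EC II and 299 CPM ± 156 (SD, n = 8) in Arterial EC I. Per kilobase of transcript these levels were 169 and 81.6 CPM. In the 7 mice with enough cells of both labels Gja5 was higher in Arterial EC II each time: in the E18.5 female 563 against 137 CPM, in the E18.5 male 630.3 against 498, in the P1 female 1035 against 363, in the P1 male 515 against 357, in the P7 male 550.4 against 3.73, in the hyperoxia female 507 against 321 and in the hyperoxia male 542 against 387. The lowest mouse in Arterial EC II was therefore above the highest in Arterial EC I. The share of all genes placed in this way was not counted. The P7 male value in Arterial EC I came from 4 cells of 63994 to 201971 reads that held 2 Gja5 reads in all and 244 to 755 Gja4 reads each. A Gja5 read was found in 85.7% of Arterial EC II cells (36 of 42, interval 71.5 to 94.6%) and in 75.3% of Arterial EC I cells (70 of 93, 65.2 to 83.6%), and without thinning in 88.1% and 84.4%.

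Outside the arterial labels Gja5 was low. Late Car4- capillaries averaged 32.9 CPM ± 35.7 (SD, n = 6) and Early Car4- capillaries 13.63 CPM ± 10.96 (SD, n = 7), Venous EC averaged 8.11 CPM, and each remaining label averaged less. The ranges over mice overlapped between every pair of neighbours in this order except Arterial EC II and I, and nonproliferative embryonic EC (2.55 CPM, n = 2) and Car4+ capillaries (0.371 CPM, n = 8). Lymphatic EC had a Gja5 read in 0 of 82 cells, which allows a share of up to 3.66%, and Car4+ capillaries in 4 of 332 (1.20%). Arterial EC I and II held 4.71% of the cells and 71.8% of the Gja5 CPM summed over cells. The low capillary means were not a low level in every cell: 22 of 841 Early and 14 of 622 Late Car4- capillary cells reached at least 100 CPM, as did 58 of 96 Arterial EC I and 34 of 42 Arterial EC II cells, and 1 of 332 Car4+ cells.

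**Figure D1:**
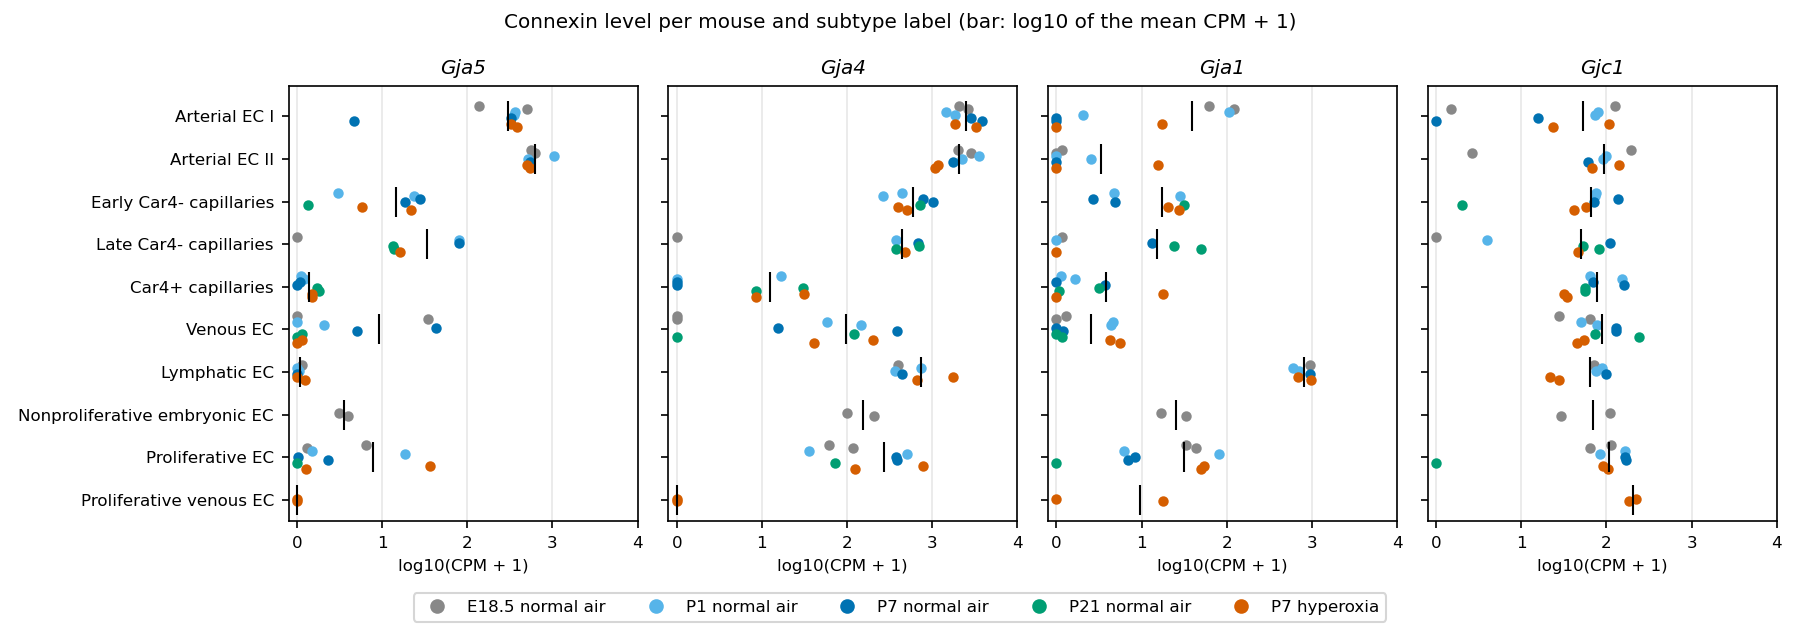
Level of Gja5, Gja4, Gja1 and Gjc1 on a log10(CPM + 1) axis in each subtype label, with 1 point per mouse with at least 4 cells of the label, coloured by group, and a bar at the log10 of the mean CPM + 1. Gja5 is highest in Arterial EC II and I (means of 620.4 and 299 CPM, with 1 Arterial EC I mouse at 3.73 CPM), Gja1 in Lymphatic EC (811.5 CPM), Gja4 spreads over most labels but Car4+ capillaries (11.3 CPM), and the Gjc1 points overlap across nearly all labels.

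Gja4 was the most abundant connexin of arterial cells and reached further into the capillary bed. It averaged 2478 CPM ± 819 (SD, n = 8) in Arterial EC I and 2086 CPM ± 883 (SD, n = 7) in Arterial EC II, or 1471 and 1238 CPM per kilobase. Of the 7 mice with both labels, 3 had more in Arterial EC II and 4 in Arterial EC I. Lymphatic EC followed with 730.5 CPM ± 536 (SD, n = 6), then Early Car4- capillaries with 589 CPM ± 265 (SD, n = 7) and Late Car4- capillaries with 439 CPM ± 259 (SD, n = 6). Proliferative EC averaged 272 CPM, nonproliferative embryonic EC 152 CPM, Venous EC 95.5 CPM, Car4+ capillaries 11.3 CPM ± 12.7 (SD, n = 8) and Proliferative venous EC 0 CPM (n = 2), and the ranges of every pair of neighbours in this order overlapped. A Gja4 read was found in 100% of Arterial EC II cells (42 of 42, 91.6 to 100%), 93.5% of Arterial EC I cells (87 of 93, 86.5 to 97.6%), 54.8% of Early and 42.0% of Late Car4- capillary cells, and 3.01% of Car4+ cells. Early and Late Car4- capillaries held 35.0% and 24.2% of the Gja4 CPM summed over cells, against 25.03% in both arterial labels together.

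Gja1 marked Lymphatic EC. The 6 mice with enough cells had 963 CPM (E18.5 male), 601.6 CPM (P1 female), 698 CPM (P1 male), 947 CPM (P7 male), 694 CPM (hyperoxia female) and 964 CPM (hyperoxia male), a mean of 811.5 CPM ± 164 (SD), or 255 CPM per kilobase. The lowest of these mice was above the highest mouse of any other label, which was 119.7 CPM in Arterial EC I. The P21 male, left out here with 2 lymphatic cells, had 2.19 CPM. Of lymphatic cells 92.7% had a Gja1 read (76 of 82, 84.7 to 97.3%), and this label, with 2.80% of the cells, held 51.4% of the Gja1 CPM summed over cells. In the same label Prox1, the lymphatic identity factor, was at 191 to 735 CPM and Flt4, the receptor for VEGF-C, at 2220 to 4861 CPM, while Prox1 stayed at or under 3.66 CPM in Arterial EC I. Arterial EC I averaged 38.1 CPM ± 50.7 (SD, n = 8) of Gja1 with a read in 16.1% of cells, and Arterial EC II 2.36 CPM ± 5.51 (SD, n = 7) with a read in 4.76%. Proliferative EC averaged 30.6 CPM and nonproliferative embryonic EC 24.2 CPM, and Venous EC was lowest with 1.55 CPM.

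Gjc1 was the least restricted. Its mean was 202 CPM in the 2 hyperoxia mice with Proliferative venous EC (10 of 10 cells with a read), 106 CPM ± 55.6 (SD, n = 9) in Proliferative EC, 92.6 CPM ± 60.8 (SD, n = 7) in Arterial EC II, 88.0 CPM in Venous EC, 77.3 CPM in Car4+ capillaries, 68.5 CPM in nonproliferative embryonic EC, 64.5 CPM in Early Car4- capillaries, 62.8 CPM in Lymphatic EC, 52.6 CPM ± 49.4 (SD, n = 8) in Arterial EC I and 48.7 CPM in Late Car4- capillaries. Beyond the first label, every pair of neighbours in this order overlapped. Per kilobase Gjc1 was at 22.7 CPM in Arterial EC I and 40.0 CPM in Arterial EC II, below Gja5 and far below Gja4 there, whereas in Car4+ capillaries it was the highest of the 4 at 33.4 CPM per kilobase, against 6.70 for Gja4. Within each of the 7 mice with both arterial labels Gjc1 was higher in Arterial EC II, from 1.65 against 0.505 CPM in the E18.5 male to 192 against 126 CPM in the E18.5 female, while across mice the 2 labels overlapped. Some of these differences were small or rested on few cells: 90.4 against 72.5 CPM in the P1 male, and 59.9 against 0 CPM in the P7 male with 4 Arterial EC I cells. The share of all genes higher in Arterial EC II in all 7 mice was not counted. A read was found in 51.5% of Proliferative EC cells (201 of 390, 46.4 to 56.6%), 48.3% of Venous EC, 45.2% of Arterial EC II and 16.9% of Late Car4- capillary cells.

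**Figure D2:**
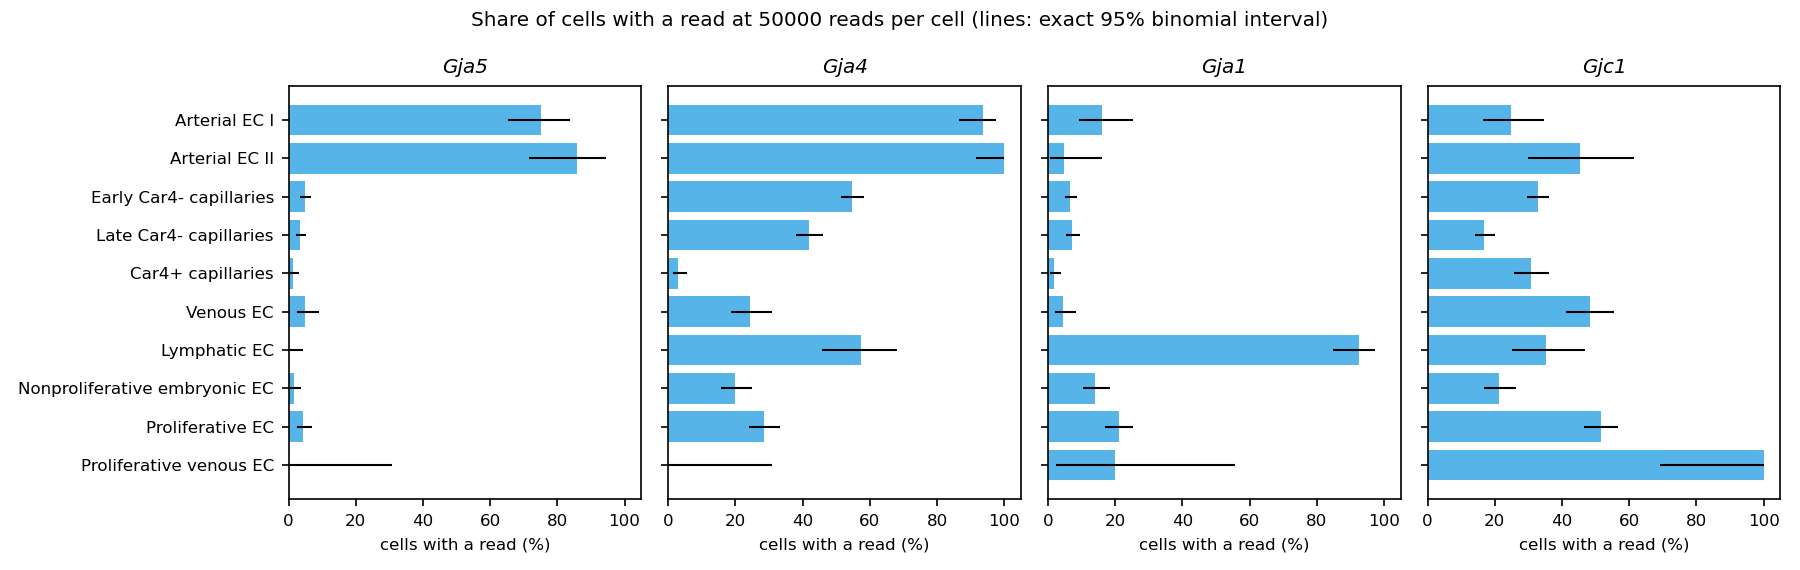
Percent of cells with at least 1 read of each connexin after thinning every cell to 50000 reads, by subtype label, with exact 95% binomial intervals as lines. The bars run from 0 of 82 Lymphatic EC cells for Gja5 to 42 of 42 Arterial EC II cells for Gja4.

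Arterial cells combined several connexins. Of 93 thinned Arterial EC I cells, 66 had reads of both Gja5 and Gja4, 4 of Gja5 alone of that pair, 21 of Gja4 alone and 2 of neither. All 36 Arterial EC II cells with Gja5 also had Gja4, and the 6 without Gja5 had Gja4 as well. Counting all 4 genes, 44 Arterial EC I cells had reads of 2 connexins, 28 of 3 and 1 of all 4, and among 42 Arterial EC II cells 18 had 2, 18 had 3 and 1 had all 4. In Early Car4- capillaries 35 of the 41 cells with Gja5 also had Gja4 (85.4%), compared with 53.3% of the cells without Gja5, and in Late Car4- capillaries 18 of 21 (85.7%) compared with 40.4%. In Lymphatic EC 45 of the 76 Gja1 cells had Gja4 and 0 had Gja5.

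Across ages and treatment both arterial labels were summed, because most mice had few cells of each (10 to 20 arterial cells a mouse), and P21 had 4 arterial cells in all. The mix of labels differed: Arterial EC I and II cells numbered 15 and 4 in the P1 female and 10 and 9 in the P1 male. They numbered 16 and 1 in the P7 female and 4 and 6 in the P7 male. Gja5 and Gjc1 were higher in Arterial EC II in each mouse with enough cells of both labels. Group and label mix therefore cannot be told apart in these sums. In a fit of Arterial EC I alone, where the P7 male had 4 cells, Gja5 and Gjc1 were also lower at P7 than at P1. Neither passed the threshold there. Arterial Gja5 was 339 and 529 CPM in the E18.5 female and male, 516 and 476 CPM at P1, 335 and 439 CPM at P7 and 369 and 466 CPM under hyperoxia. The P7 mice were both below the P1 mice, as for 19.1% of the 11951 genes tested, and P1 overlapped E18.5 and hyperoxia overlapped P7. Arterial Gja4 was 2031 and 2679 CPM in the E18.5 mice, 1936 and 2145 CPM at P1, 2931 and 2171 CPM at P7 and 1673 and 2126 CPM under hyperoxia, so that both P7 mice were above both P1 mice (15.3% of genes) and above both hyperoxia mice (14.6%). Neither gene passed the test. In edgeR's quasi-likelihood F test on reads summed per mouse, the log2 change of Gja5 was 0.06 ± 0.54 (SE) from E18.5 to P1, -0.35 ± 0.54 from P1 to P7 and 0.18 ± 0.54 under hyperoxia, and that of Gja4 -0.33 ± 0.54, 0.34 ± 0.54 and -0.38 ± 0.54, all with an adjusted p of 1. In males of 1 sequencing run, CD31 gate alone, arterial Gja4 was 2573 CPM under hyperoxia against 2171 CPM without it, the other way round from the pooled mice, and Gja5 533 and 439 CPM.

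The 2 minor arterial connexins varied more. Arterial Gjc1 was 157 and 0.773 CPM in the E18.5 mice, 83.2 and 86.0 CPM at P1, 36.4 and 47.7 CPM at P7 and 115 and 44.9 CPM under hyperoxia. Both P7 mice were below both P1 mice, the placement given above for Gja5, and the log2 change of -1.01 ± 1.42 (SE) had an adjusted p of 1 in edgeR. From E18.5 to P1 it was -0.01 ± 1.40 and under hyperoxia 0.96 ± 1.42, each with an adjusted p of 1. Arterial Gja1 was 32.4 and 91.6 CPM in the E18.5 mice, 82.0 and 1.44 CPM at P1, 0 in both P7 mice and 16.1 and 0 CPM under hyperoxia, and its log2 change from E18.5 to P1 was -0.78 ± 2.21 (SE, adjusted p = 1 in edgeR). At P7 a Gja1 read was in 0 of 27 arterial cells, which allows a share of up to 11.1%, against 6 of 36 cells (16.7%) at P1 and 4 of 33 (12.1%) under hyperoxia. In the E18.5 male 77.6% of the arterial Gja1 reads came from 1 cell.

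Of the 4 connexins, 0 passed an adjusted p of 0.05 in edgeR in the 3 arterial contrasts, where 2 of 11951 genes (0.0167%) passed from E18.5 to P1, 0 (0%) from P1 to P7 and 0 (0%) under hyperoxia. Connexins with an unadjusted p under 0.05 numbered 0, 1 and 1 (Gja1 both times), beside 464 (3.88%), 383 (3.2%) and 355 (2.97%) of all genes. DESeq2 called 1.81%, 0.845% and 1.35% of the genes and, of the connexins, Gja1 from P1 to P7 (adjusted p = 0.00603), the contrast in which P7 had no Gja1 read. limma on per-cell means called 0 connexins. Mouse names stand for separate animals only as far as the labels go, so these p-values measure the spread between the named mice. The 4 P21 arterial cells had 26.9, 433, 1212 and 0 CPM of Gja5, 2551, 1146, 3270 and 3025 CPM of Gja4, no Gja1 read, and Gjc1 in 1 cell (204 CPM).

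**Figure D3:**
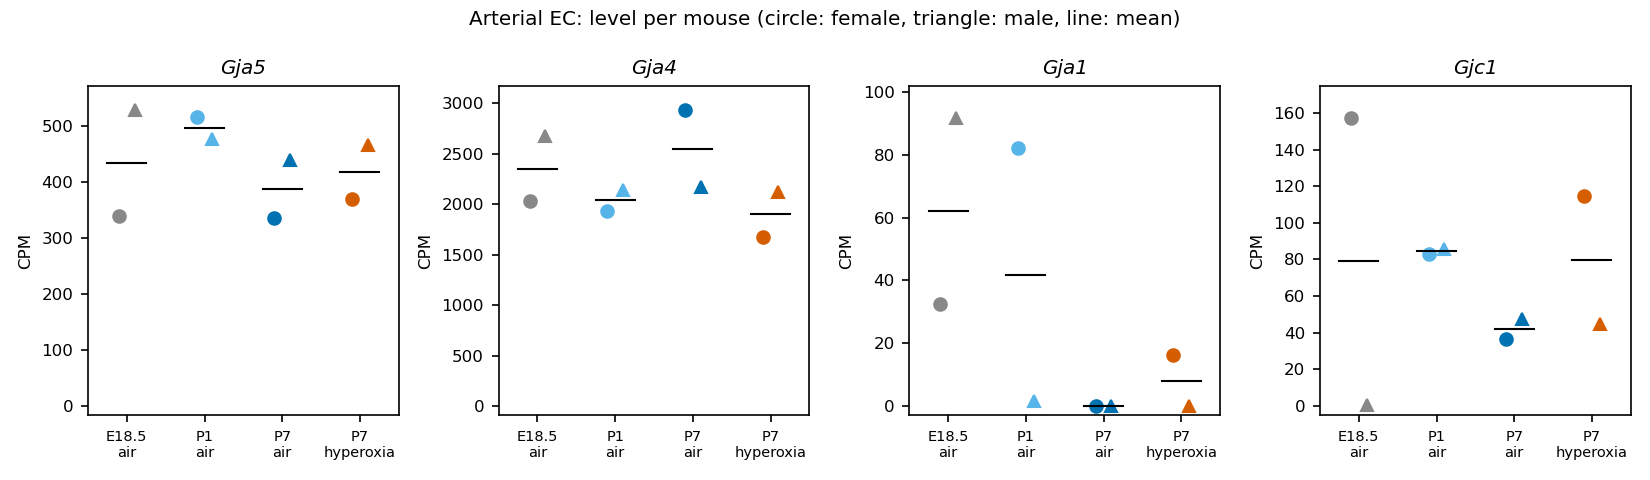
Arterial EC (I and II together): CPM of each connexin per mouse by group, females as circles, males as triangles, the mean as a line. Gja5 lies between 335 and 529 CPM and Gja4 between 1673 and 2931 CPM in all groups, while Gja1 is at 0 in both P7 mice in normal air and Gjc1 runs from 0.773 to 157 CPM.

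In Car4- capillaries, Early and Late together with 116 to 272 cells a mouse, Gja4 was highest at P7 in normal air. The P21 cells were nearly all Late (268 of 272 in the female and 265 of 268 in the male) and those of P1, P7 and hyperoxia mostly Early, so the contrast of P7 with P21 also compares labels, and age and label cannot be told apart in it. Among Late cells alone, the P7 female (44 cells) had 689 CPM of Gja4 and 12.2 CPM of Gja1, and the P21 mice 704 and 379 CPM of Gja4 and 22.9 and 48.9 CPM of Gja1, while the P7 male had 2 such cells. The P1 female and male had 432 and 268 CPM, the P7 mice 768 and 1036 CPM, the P21 mice 704 and 383 CPM and the hyperoxia mice 392 and 504 CPM. The P7 mice were above all others. The log2 change was 1.29 ± 0.39 (SE) from P1 to P7 (unadjusted p = 0.00549, adjusted p = 0.385 in edgeR), -0.63 ± 0.38 from P7 to P21 (adjusted p = 0.585) and -1.03 ± 0.38 under hyperoxia (unadjusted p = 0.0190, adjusted p = 0.887). In the P7 male 1 cell carried 34.0% of the Gja4 reads. The share of cells with a read was also highest at P7: 47.3% at P1 (143 of 302), 67.1% at P7 (214 of 319), 44.4% at P21 (240 of 540) and 43.2% under hyperoxia (123 of 285). In males of 1 run Gja4 was 816.5 CPM at P7, 504 CPM under hyperoxia and 334 CPM at P21. No run held CD31-gate cells of both P1 and P7 mice, so for those cells run and age cannot be told apart in that contrast.

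Gja1 in the same capillaries was lowest at P7 in normal air. It was 3.52 and 27.03 CPM at P1, 3.01 and 3.83 CPM at P7, 23 and 48.1 CPM at P21 and 19.4 and 25.7 CPM under hyperoxia. The P7 mice lay below the P21 and the hyperoxia mice without overlap, and overlapped P1 through the P1 female. The log2 change was -2.39 ± 0.93 (SE) from P1 to P7 (unadjusted p = 0.0230, adjusted p = 0.406 in edgeR), 3.53 ± 0.97 from P7 to P21 (unadjusted p = 0.00302, adjusted p = 0.214) and 2.70 ± 0.94 under hyperoxia (unadjusted p = 0.0129, adjusted p = 0.887). A read was in 3.13% of cells at P7 (10 of 319, 1.51 to 5.69%), 8.33% at P21 (45 of 540, 6.14 to 10.99%) and 11.6% under hyperoxia (33 of 285, 8.11 to 15.9%). Within the run of the males Gja1 was 4.90 CPM at P7, 31.9 CPM at P21 and 25.7 CPM under hyperoxia.

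Marker lists for other cells were summed in the same capillaries. The 8 smooth muscle and pericyte markers summed to 16.2 to 32.0 CPM at P7, 26.3 to 40.9 CPM at P21 and 56.2 to 65.4 CPM under hyperoxia, and the 6 fibroblast markers to 4.24 to 10.3, 16.7 to 17.8 and 8.67 to 15 CPM, with none at 0 in either list. The 5 lymphatic markers summed to 911 to 913 CPM at P7, 935 to 1044 CPM at P21 and 3930 to 4253 CPM under hyperoxia, and all 5 had reads. This list was not particular to lymphatic cells. It reached 4986 CPM in Arterial EC I and had a median of 2323 CPM in Early Car4- capillaries, against 6916 to 9676 CPM in Lymphatic EC. The 9 arterial markers, beside Gja4, summed to 946 to 1221 CPM at P1, 1709 to 1781 CPM at P7, 1920 to 2358 CPM at P21 and 1019 to 1378 CPM under hyperoxia, with Dkk2 at 0 at P1 and under hyperoxia. Their part in the connexin values was not tested.

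In Car4- capillaries Gja5 stayed at or under 33.4 CPM and Gjc1 between 40.3 and 132 CPM in these mice. Gja5 was 7.59 and 22.8 CPM at P1, 33.4 and 17.3 CPM at P7, 12.3 and 12.5 CPM at P21 and 4.85 and 20.6 CPM under hyperoxia, with log2 changes of 0.56 ± 0.87 (SE) from P1 to P7, -0.92 ± 0.87 from P7 to P21 and -1.01 ± 0.88 under hyperoxia (adjusted p = 0.841, 0.764 and 1 in edgeR). Only P7 and P21 did not overlap, the P21 mice being lower, as 21.5% of genes were. In the P7 male 1 cell held 91.1% of these reads, and in males of 1 run, CD31 gate alone, Gja5 was 1.97 CPM at P7, 11.8 CPM at P21 and 20.6 CPM under hyperoxia, the other way round from the pooled mice. Gjc1 was 68.8 and 72.2 CPM at P1, 132 and 77.7 CPM at P7, 50.9 and 80.4 CPM at P21 and 56.6 and 40.3 CPM under hyperoxia. Its log2 changes were 0.47 ± 0.44 (SE), -0.54 ± 0.44 and -1.15 ± 0.45 (adjusted p = 0.719, 0.714 and 0.887 in edgeR), and the P7 mice were above both the P1 and the hyperoxia mice but overlapped P21. In the males' run Gjc1 was 91.3 CPM at P7 and 124 CPM at P21, again the other way round. In the E18.5 female, the 13 Car4- capillary cells had 0 reads of Gja5, Gja4 and Gjc1, which allows up to 23.1% of such cells for each.

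In these 3 contrasts 0 of the 4 connexins passed an adjusted p of 0.05 in edgeR, where 0 (0%), 39 (0.266%) and 2 (0.0136%) of 14660 genes passed from P1 to P7, from P7 to P21 and under hyperoxia. The unadjusted p was under 0.05 for 2, 1 and 3 connexins and for 1663 (11.3%), 1542 (10.5%) and 809 (5.52%) genes. With DESeq2 398 (2.71%), 692 (4.72%) and 180 (1.23%) genes passed, among them Gja4 from P1 to P7 (adjusted p = 0.0437) and Gja1 from P7 to P21 (adjusted p = 0.00159). Without the P1 female, edgeR also called Gja1 from P7 to P21 (adjusted p = 0.0493), in a fit that called 83 of 15587 genes. The placement without overlap was common: 21.1% of all genes tested had both P7 mice above both P1 mice, 19.7% both P21 mice above both P7 mice, 18.1% both hyperoxia mice above and 15.6% both below both P7 mice.

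**Figure D4:**
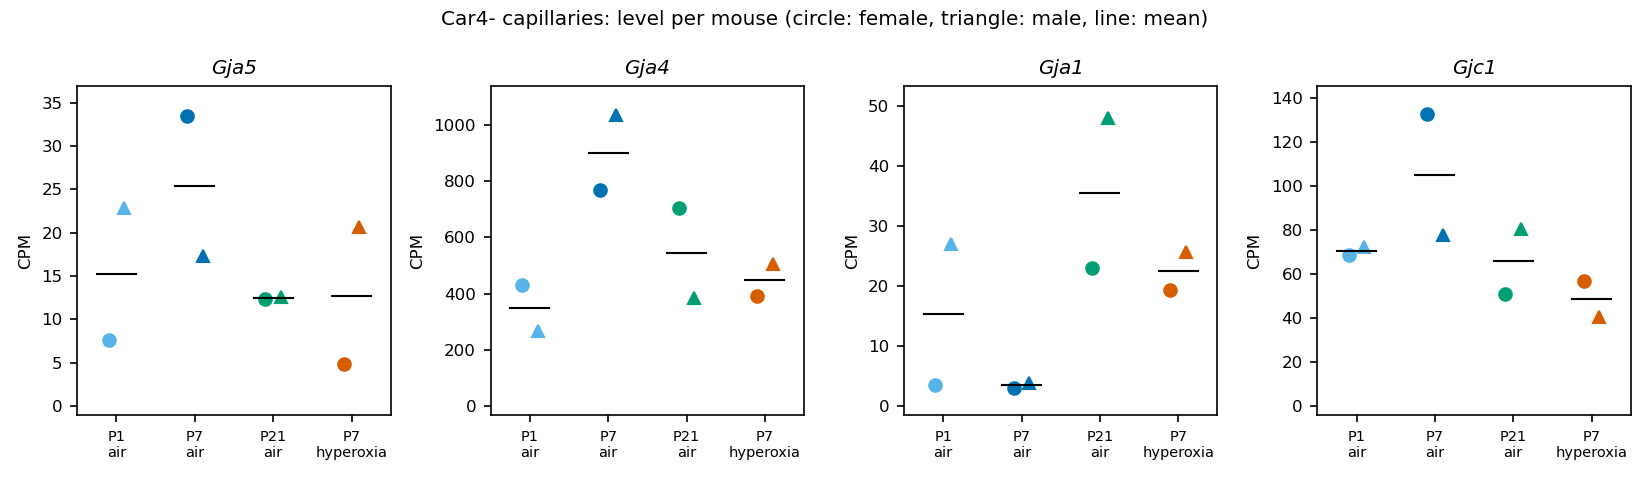
Car4- capillaries (Early and Late together): CPM of each connexin per mouse by group, females as circles, males as triangles, the mean as a line. The 2 P7 mice in normal air are the highest for Gja4 (768 and 1036 CPM) and sit at 3.01 and 3.83 CPM for Gja1, below both P21 and both hyperoxia mice.

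Hyperoxia was set against normal air at P7 in 5 classes, and Gjc1 was lower in both hyperoxia mice than in both controls in 4 of them. Venous EC had 54.1 and 43.7 CPM under hyperoxia, with 129 and 128 CPM in the controls. Proliferative EC had 90.0 and 104 CPM against 163 and 170 CPM, and Car4+ capillaries 30.9 and 33.6 CPM against 68.5 and 162 CPM. Together with Car4- capillaries above these are the classes without overlap, and arterial cells overlapped. The share of all genes placed in this way was 16.5% in Venous EC, 16.4% in Proliferative EC, 12.4% in Car4+ capillaries and 15.6% in Car4- capillaries, the classes came from the same mice, and none of the differences passed: the log2 change was -1.39 ± 0.78 (SE) in Venous EC (adjusted p = 1 in edgeR), -0.79 ± 0.49 in Proliferative EC (adjusted p = 1) and -2.17 ± 0.82 in Car4+ capillaries (unadjusted p = 0.0210, adjusted p = 0.731). In males of 1 run, CD31 gate alone, Gjc1 was lower under hyperoxia in all 5 classes: 16.2 against 47.7 CPM in arterial cells, 40.3 against 91.3 CPM in Car4- capillaries, 33.6 against 86.7 CPM in Car4+ capillaries, 104 against 192 CPM in Proliferative EC and 43.7 against 128 CPM in Venous EC. These values set 1 mouse against 1 in every class, and the normal-air male was the shallowest of the 10 mice. The share of all genes lower in 4 or 5 of the classes was not counted. CD31-gate cells of the 2 females shared no run, so treatment and run cannot be told apart for them. Their arterial Gjc1 went the other way, at 115.5 CPM under hyperoxia against 40.8 CPM, and was lower under hyperoxia in each other class. The smooth muscle and pericyte markers summed to 297 to 357 CPM in Venous EC in normal air and to 383 to 418 CPM under hyperoxia, and their part in Gjc1 was not tested.

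**Figure D5:**
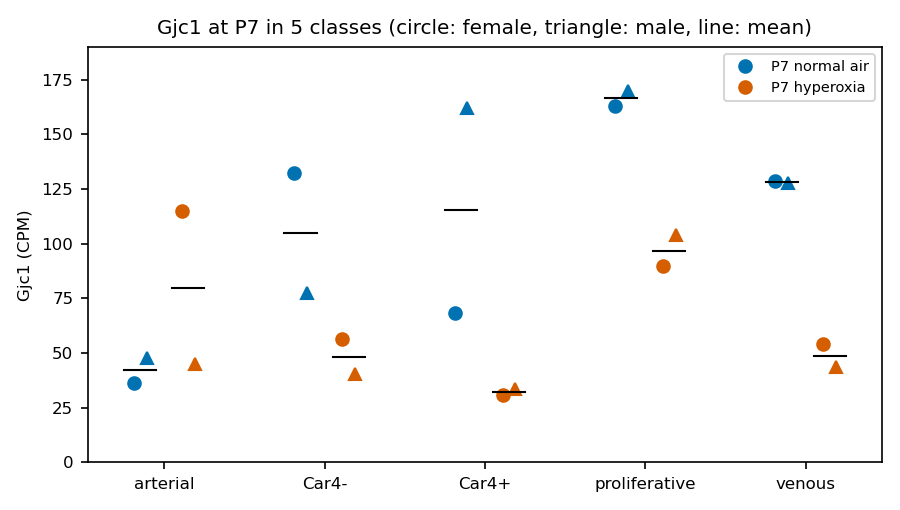
Gjc1 at P7 in normal air and under hyperoxia in 5 classes of cells: CPM per mouse, females as circles, males as triangles, the mean as a line. Both hyperoxia mice lie below both normal-air mice in Car4- capillaries, Car4+ capillaries, Proliferative EC and Venous EC, and the arterial mice overlap.

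For Gja1 the hyperoxia mice both exceeded the 2 controls in 3 of the 5 classes. In Proliferative EC it was 53.1 and 49.0 CPM against 7.46 and 5.92 CPM, with a log2 change of 2.92 ± 1.18 (SE, unadjusted p = 0.0317, adjusted p = 1 in edgeR), where 16.6% of genes were placed in this way. Within the males' run these values were 49.0 and 5.80 CPM. In Venous EC Gja1 was 3.29 and 4.56 CPM against 0 and 0.186 CPM, a total of 177 reads against 1. There 17.6% of genes were placed in this way, and 18.1% in Car4- capillaries, the third class. Gja4 was without overlap in 3 classes, lower in arterial cells (as 14.6% of genes were) and Car4- capillaries (15.6%) and higher in Car4+ capillaries (19.8%). Gja5 was without overlap in 2 classes. It was higher in Car4+ capillaries (19.8% of genes), where it stayed at or under 0.504 CPM, and lower in Venous EC (16.5%). The smooth muscle and pericyte markers summed to 9.80 to 260.0 CPM in Proliferative EC at P7 and 70.3 to 90.7 CPM under hyperoxia, with all 8 detected in both groups, and their part was not tested.

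Whether the hyperoxia difference itself differed between classes was tested against Car4- capillaries of the same mice. For arterial cells the difference of log2 changes was 0.63 ± 0.44 (SE) for Gja4, 1.42 ± 0.83 for Gja5 and 1.92 ± 0.78 for Gjc1 (unadjusted p = 0.0376), each with an adjusted p of 1 in edgeR. In the 4 such tests (arterial, Car4+, venous and proliferative) 0 connexins and 0 (0%) of 13747, 14711, 14317 and 14332 genes passed, while 1, 1, 1 and 0 connexins had an unadjusted p under 0.05 beside 405 (2.95%), 543 (3.69%), 576 (4.02%) and 203 (1.42%) genes. DESeq2 called 213 (1.55%), 246 (1.67%), 205 (1.43%) and 65 (0.454%) genes, with Gja4 in Car4+ capillaries (adjusted p = 0.000118) the only connexin.

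That Gja4 result rested on few cells. In Car4+ capillaries Gja4 was 15.6 and 0 CPM at P1, 0 and 0 CPM at P7 (0 of 66 cells, which allows up to 4.55%), 29.6 and 7.42 CPM at P21 and 30.3 and 7.52 CPM under hyperoxia. In the hyperoxia mice 99.7% and 100% of these reads came from 1 cell a mouse, and 2 of 56 thinned cells had a read, so no fold is given. DESeq2 called Gja4 in the contrasts P1 to P7, P7 to P21 and hyperoxia (adjusted p = 2.35e-16, 2.55e-18 and 2.88e-18), and edgeR did not (adjusted p = 0.730, 0.858 and 0.731). Of 12284 genes edgeR called 0 (0%), 1 (0.00814%) and 0 (0%), with 772 (6.28%), 644 (5.24%) and 757 (6.16%) at an unadjusted p under 0.05, among them 1, 1 and 2 of the 4 connexins, and DESeq2 called 259 (2.11%), 254 (2.07%) and 268 (2.18%). Gjc1 was 62.4 and 150 CPM at P1, 68.5 and 162 CPM at P7 and 55.4 and 55.1 CPM at P21, with a log2 change of -1.21 ± 0.80 (SE) from P7 to P21 (adjusted p = 0.887 in edgeR) and both P21 mice below both P7 mice, as for 12.8% of genes, and 52.9 against 86.7 CPM in the males' run.

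Venous Gja4 had no read at E18.5. It was 0 and 0 CPM at E18.5 (0 of 21 thinned cells, which allows up to 14.3%), 56.8 and 144 CPM at P1 (14 of 66 cells, 21.2%, 12.1 to 33.0%), 14.3 and 382 CPM at P7 and 199 and 39.6 CPM under hyperoxia. At P21 the female had 120 CPM, and 4 cells of the male had 0. The E18.5 and P1 mice did not overlap, as for 27.4% of genes in that direction, and the females of 1 run had 56.8 and 0 CPM. The difference had an unadjusted p of 0.000149 and an adjusted p of 0.159 in edgeR, and an adjusted p of 2.61e-08 in DESeq2. In edgeR it did not pass with RLE scaling (0.165), the CD31 gate alone (0.15), thinned cells (0.197) or the sex block (0.306), nor in limma (0.312). It passed without the filter on low counts (4.82e-13), where 101 of 16520 genes were called, and without any 1 of the 8 mice (0.000497 to 0.0376). These last fits called 4 to 14 genes, except 666 of 13548 without the E18.5 female and 233 of 13588 without the E18.5 male, and 4 of them leave 1 mouse at E18.5 or P1 that is assumed to vary like the other groups. No fold is given because E18.5 had 0 reads. Of 12326 genes, edgeR called 2 (0.0162%) from E18.5 to P1, 0 (0%) from P1 to P7 and 0 (0%) under hyperoxia, and 0 connexins in each. Before adjustment 1074 (8.71%), 396 (3.21%) and 331 (2.69%) genes had p under 0.05, with 1, 0 and 1 connexins among them, and DESeq2 called 543 (4.41%), 75 (0.608%) and 93 (0.755%) genes.

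In Proliferative EC Gja1 was 32.2 and 42.5 CPM in the E18.5 mice, 5.23 and 79.8 CPM at P1 and 7.46 and 5.92 CPM at P7, with a log2 change of -2.94 ± 1.19 (SE) from P1 to P7 (unadjusted p = 0.0310, adjusted p = 0.499 in edgeR). The P1 mice had 13 and 9 such cells, and 1 cell of the male held 94.8% of its Gja1 reads. Without the P1 female, which leaves 1 P1 mouse of 9 cells that is assumed to vary like the other groups, edgeR called Gja1 from P1 to P7 (adjusted p = 0.00734) and Gja4 from E18.5 to P1 (adjusted p = 0.0249), but also 1207 and 924 of 14408 genes. With both mice it called 0 connexins and 0 (0%), 0 (0%) and 0 (0%) of 13102 genes in the 3 contrasts. Before adjustment p was under 0.05 for 0, 1 and 1 connexins and for 972 (7.42%), 1287 (9.82%) and 339 (2.59%) genes, and DESeq2 called 506 (3.86%), 620 (4.73%) and 114 (0.87%) genes and 0 connexins. Gja4 was 60.5 and 117 CPM in the E18.5 mice, 34.6 and 508 CPM at P1, 373 and 385 CPM at P7 and 772 and 123 CPM under hyperoxia, and Gjc1 112 and 63.3 CPM, 165 and 82.5 CPM, 163 and 170 CPM, and 90.0 and 104 CPM.

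Around birth, nonproliferative embryonic EC of E18.5 were set against Car4- capillaries of P1, which compares age and label together. Gja5 was 2.10 and 3.00 CPM in the embryonic cells and 7.59 and 22.8 CPM at P1, and Gja4 99.7 and 204 CPM against 432 and 268 CPM, both without overlap, as for 16% of genes, and the females shared a run. The log2 change, E18.5 relative to P1, was -2.74 ± 0.96 (SE) for Gja5 and -1.25 ± 0.44 for Gja4 (unadjusted p = 0.0124 and 0.0127, adjusted p = 0.380 for both in edgeR). Gja1 (15.98 and 32.5 CPM against 3.52 and 27.03 CPM) and Gjc1 (109 and 28.1 CPM against 68.8 and 72.2 CPM) overlapped, with log2 changes of 0.47 ± 0.87 (SE) and -0.16 ± 0.56 (adjusted p = 0.938 and 0.977 in edgeR). edgeR called 74 of 14967 genes (0.494%), 0 connexins among them, with 2 connexins and 1410 genes (9.42%) at an unadjusted p under 0.05. DESeq2 called 572 genes (3.82%), Gja5 among them (adjusted p = 0.0276).

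The pathway list held 22 genes of Notch signalling, flow response and p27 that are known to act with arterial connexins. In arterial cells 21 were tested and 0 were called in either direction in edgeR, with median log2 changes of -0.03 from E18.5 to P1, -0.03 from P1 to P7 and 0.30 under hyperoxia beside 0.07, -0.04 and 0.00 over all genes tested. At an unadjusted p under 0.05 there were 2, 1 and 1 of the 21, beside 3.88%, 3.2% and 2.97% of all genes tested. In Car4- capillaries all 22 were tested and 0 called, with medians of -0.02, 0.27 and 0.29 from P1 to P7, from P7 to P21 and under hyperoxia beside -0.04, 0.06 and -0.01 over all genes. The unadjusted p was under 0.05 for 8, 2 and 2 of the 22, beside 11.3%, 10.5% and 5.52% of all genes tested. Around birth 1 of 22 was called, Smad6, an inhibitor of BMP signalling, which was lower at E18.5 with a log2 change of -2.84 ± 0.50 (SE, adjusted p = 0.0198 in edgeR), and the median was -0.77 beside -0.02 over all genes, with 4 of 22 above 0. Of 13 connexin partner genes (junction, adhesion and trafficking proteins), 12 were tested in arterial cells and 0 called, with medians of 0.05, -0.18 and 0.07. In Car4- capillaries all 13 were tested with medians of -0.11, -0.25 and -0.07, and 1 was called, Dbn1, the actin-binding protein drebrin, which fell by 2.58 ± 0.47 (SE, log2) from P7 to P21 (adjusted p = 0.0450 in edgeR). Among the arterial markers Mgp rose from P7 to P21 in Car4- capillaries (log2 change 6.10 ± 0.97, adjusted p = 0.0296 in edgeR), and around birth Mgp (-7.46 ± 1.15, adjusted p = 0.00843) and Cxcl12, a chemokine (-3.32 ± 0.44, adjusted p = 0.00224), were lower at E18.5. For Dbn1 and Mgp from P7 to P21, and for the genes called around birth, age and label cannot be told apart.

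Among other connexins and pannexins with a mean of at least 5 CPM in a label and group, Gjd3 averaged 10.9 CPM ± 18.3 (SD, n = 6) in Lymphatic EC. Its lymphatic means by group were 3.98 CPM at P1 and 0.541 CPM under hyperoxia. It reached the 5 CPM in Arterial EC II under hyperoxia, at 0 and 21.2 CPM in the 2 mice. In that label 1 cell held 79.0% of the Gjd3 reads. Panx1, a pannexin channel, averaged 29.9 CPM ± 27.4 (SD, n = 8) in Arterial EC I and 26.6 CPM ± 46.7 (SD, n = 7) in Arterial EC II, where 1 cell held 81.8% of its reads. It was not particular to arterial labels. In Venous EC it averaged 47.9 CPM under hyperoxia and 9.75 CPM at P7 in normal air. At P7 in normal air it averaged 24.65 CPM in Proliferative EC, 22.7 CPM in Early Car4- capillaries and 3.97 CPM in Car4+ capillaries. Panx2 was at 31.0 CPM in 1 of 7 mice in Arterial EC II, with 97.3% of its reads in 1 cell, and at a median of 0.

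The genes whose levels were most like each connexin were ranked by Pearson's r on log2(CPM + 1) over 50 sums of 1 mouse and label among 12220 genes, as a description, since sums of 1 mouse share its depth and run. Gja5 was most like Cxcl12 (r = 0.767, Spearman's rho = 0.711), 1010001N08Rik (0.759), Pcsk5 (0.756), Sat1 (0.735) and Cxcr4 (0.727). Gja4 was most like Stc1 (r = 0.846, rho = 0.837), Hey1 (0.797), Tm4sf1 (0.751), Cxcl12 (0.747) and Pcsk5 (0.731), and the 2 lists share Cxcl12 and Pcsk5. Between Gja5 and Gja4 themselves r was 0.582 and rho 0.626. Gja1 was most like Plekha4 (r = 0.704, rho = 0.505), D330037F02Rik (0.701), Hoxd8 (0.698), Slc10a6 (0.695) and Ttyh1 (0.687). Gjc1 was most like Rbm6 (r = 0.781, rho = 0.421), Kbtbd2 (0.730), Emc10 (0.719), Coro1c (0.714, rho = 0.711) and Clasp1 (0.713).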

How the data were processed

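Reads were counted per gene by the authors with HTSeq 0.10 after alignment with STAR 2.5.2b, per the submitters' processing notes, and the deposited table holds whole-number counts of reads in 2931 cells. Those notes name the build GRCh38, a human name, and a mouse build is not given in the sources used here. Positions and transcript lengths were taken by gene symbol from GENCODE M21 (GRCm38) for annotation only, and per-kilobase levels assume that transcript. No molecular identifiers were used, and PCR duplicates therefore stay in the counts.

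The 4 members and all gene lists were chosen with earlier results of these data known. Counts were summed per mouse and class (at least 8 cells) or label (at least 4 cells), so deeply read cells weigh more, and 1 cell can carry a sum. Groups and subtype labels are the submitters'. Differences were tested in edgeR 4.0.16 (quasi-likelihood F test, TMM, filterByExpr, all groups of a class in 1 fit, R 4.3.3), with Benjamini-Hochberg adjustment over all genes tested and a threshold of 0.05. Interaction tests had the mouse as a term. The SE of an edgeR log2 change is its absolute value divided by the square root of F, since the test reports no SE. Alternatives were DESeq2 1.42.0, RLE scaling, no filter, the CD31 gate alone, cells thinned to 50000 reads, limma 3.58.1 on log2(mean CPM + 1), sex of the mouse as a block, Arterial EC I alone and each mouse left out. Levels, shares and figures used Python 3.11.15 with numpy 2.4.6 and scipy 1.17.1. The edgeR fit was tested on simulated counts for the arterial contrast of P7 with P1 only. Within-run values compare mice of 1 sequencing run and the CD31 gate: females at E18.5, P1 and P21 shared 1 run, males at E18.5, P7, P21 and P7 hyperoxia another. CD31-gate cells of the P7 and hyperoxia females shared no run. In every hyperoxia contrast treatment and run therefore cannot be told apart for these females. A share of 0 is given with the limit of 3 cells of the total.

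Genes named are the 4 members, other connexins and pannexins with a mean of at least 5 CPM in a label and group, up to 5 genes per list and contrast that passed the threshold, and the 5 genes most like each member among those reaching 20 CPM in a sum. One gene that this rule names is not reported here.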

Additional observations from a re-analysis of the deposited data

Results flagged for a closer look

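In 3 pairs of classes both P7 mice lay below both P1 mice in arterial cells and above them in the other class. The difference between the classes was not tested. Such placements were common: 19.1% of genes tested were lower at P7 in this way in arterial cells. In Venous EC 17.3% were higher, and in Car4- capillaries 21.1%. The share of genes with opposite placements in both classes was not counted, and the mix of arterial labels differed between these mice. Gja5 was lower at P7 in arterial cells and higher in Venous EC, with a difference of log2 ratios (arterial minus venous) of -5.60, where the venous P1 level was 0 and 1.05 CPM. Gjc1 was lower at P7 in arterial cells and higher in Car4- capillaries (-1.47) and in Venous EC (-1.93). CD31-gate cells of the P1 and P7 mice shared no sequencing run, so for those cells age and run cannot be told apart in all 3.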

How the results depend on the processing

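No connexin passed the threshold in edgeR, in any of 20 contrasts. Where an alternative called connexins, it called 1: DESeq2 did so in 9 contrasts (arterial and Car4- P1 to P7, Car4- P7 to P21, the 3 Car4+ contrasts, venous E18.5 to P1, around birth and the Car4+ interaction), no filter in venous E18.5 to P1, and thinning in the Car4+ interaction (Gja4, adjusted p = 7.79e-08). With 1 mouse left out the count ranged from 0 to 1 in Car4- P7 to P21, in proliferative E18.5 to P1 and P1 to P7, and was 1 in every such fit of venous E18.5 to P1. Some of these fits leave 1 mouse in a group, assumed to vary like the other groups, and test more genes.

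Direction reversed for arterial Gjc1 from E18.5 to P1 (0.26 thinned, 2.00 in limma, 0.80 with sex as a replicate block, 0.20 in Arterial EC I alone), arterial Gja5 under hyperoxia (-0.07 in limma) and Car4- Gja5 from P1 to P7 (-0.16 thinned, -0.26 in limma). The cause was not tested. With 1 mouse left out, log2 changes crossed 0 for arterial Gja5 (-0.24 to 0.36), Gja1 (-5.48 to 0.19, 0.07 without the E18.5 male) and Gjc1 (-1.08 to 6.61, -0.11 without the P1 male and 0.08 without the P1 female) from E18.5 to P1, arterial Gja5 under hyperoxia (-0.07 to 0.39), Car4- Gja5 (-0.13 to 1.83), Gja1 (-3.28 to 0.03) and Gjc1 (-0.02 to 0.83) and proliferative Gja1 (-3.85 to 0.44) from P1 to P7, and Gja1 (-0.39 to 2.85, -0.18 without the E18.5 male) and Gjc1 (-1.34 to 0.49, -0.38 without the P1 female and 0.02 without the P1 male) around birth. Of the log2 changes printed above, recomputed without leaving out a mouse, 242 kept their direction and their side of the threshold, 3 passed it and 7 reversed. This count leaves out changes not printed, among them arterial Gja1 from P1 to P7, Car4+ Gja4, venous Gja4 and the Car4+ interaction of Gja4. Alternatives called connexins there too, as listed above.

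Mice of 1 sex share no animal or litter named in the labels. The sex block called 0 connexins in every contrast it was fitted in. Counts of all genes called moved more: from 0 in proliferative E18.5 to P1 and P1 to P7 to 924 and 1207 without the P1 female and 113 and 93 without the filter, from 2 in venous E18.5 to P1 to 666 without the E18.5 female, 233 without the E18.5 male and 101 without the filter, from 2 in arterial E18.5 to P1 to 42 without the filter, 9 thinned and 7 in limma, from 39 in Car4- P7 to P21 to 77 without the filter, 77 thinned, 10 in limma and 29 with the block, and around birth from 74 to 124 thinned. The share of Proliferative EC cells with a Gjc1 read was 57.9% without thinning and 51.5% with it.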
